A study of Homo sapiens with 6 samples.

Results

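The 7 genes described here are 5 metallothioneins (MT1E, MT1F, MT1G, MT1X and MT2A), the zinc-sensing transcription factor MTF1 and the zinc exporter SLC30A1, out of 20036 genes listed for the series. They were named by symbol and selected on their FPKM in these same libraries, with the difference between corilagin and DMSO already known (MT1G was among the larger falls). Their differences between the groups are therefore a description, and no test is read from them. All 7 symbols matched 1 Ensembl identifier each. FPKM is the number of sequenced fragments of a gene scaled to the length of the gene and to the size of the library. With a mean of at least 1 FPKM over all libraries, 6 of the 7 entered the fit across genes, and MT1X, at a mean below 0.1 FPKM in each group, did not. The libraries came from MV411, an established human leukaemia line of monocytic type labelled wild type, and each group had 3 libraries. One group was exposed to corilagin, a plant polyphenol, for 48 h and the other to DMSO, the solvent control, for the same time. All of it is 1 line at 1 time, and no source used here states the corilagin dose. The labels do not say whether the libraries of a group came from separate cultures, so the variation between them may be technical. SDs describe that variation, and p-values set the difference between the groups against it.

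Metallothioneins are small cysteine-rich proteins that bind zinc, copper and cadmium in metal-thiolate clusters and buffer free zinc in the cytosol. Their genes are induced when zinc occupies the zinc fingers of MTF1, which then binds short promoter sequences called metal response elements. The same factor induces SLC30A1 (ZnT1), which exports zinc across the plasma membrane, so metallothionein and SLC30A1 mRNA are often read together as reporters of cell zinc. Glucocorticoids, oxidative stress and inflammatory cytokines also induce metallothioneins.

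Promoter windows show how the presence of the metal response element differs between members. Of the 7 members, 4 had a window of 250 bases before to 50 bases after the gene start in the RefSeq table (build GRCh38.p14), namely MT2A, MT1X, SLC30A1 and MTF1. The starts are those of RefSeq and differ from the GENCODE release 29 gene bounds given below. The core of the element was searched as TGCACNC or TGCGCNC on both strands. Capitals mark each match, and a match on the opposite strand reads as GNGTGCA or GNGCGCA in the printed strand. The windows of the 3 genes with a match are shown 5′ to 3′ on the strand of the gene.
MT2A (chr16:56608334-56608633, plus strand): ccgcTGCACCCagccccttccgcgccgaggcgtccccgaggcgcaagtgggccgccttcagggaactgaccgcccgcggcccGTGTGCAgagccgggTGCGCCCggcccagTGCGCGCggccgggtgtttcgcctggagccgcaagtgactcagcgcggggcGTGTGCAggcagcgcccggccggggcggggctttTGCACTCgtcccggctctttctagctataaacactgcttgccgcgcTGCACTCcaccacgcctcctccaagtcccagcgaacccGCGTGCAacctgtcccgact
MT1X (chr16:56682220-56682519, plus strand): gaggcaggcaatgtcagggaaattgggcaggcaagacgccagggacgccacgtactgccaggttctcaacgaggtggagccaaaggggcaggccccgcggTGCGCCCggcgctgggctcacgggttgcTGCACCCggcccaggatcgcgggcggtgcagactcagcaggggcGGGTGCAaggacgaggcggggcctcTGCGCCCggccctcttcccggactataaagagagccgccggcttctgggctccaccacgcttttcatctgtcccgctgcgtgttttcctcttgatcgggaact
SLC30A1 (chr1:211579112-211579411, minus strand): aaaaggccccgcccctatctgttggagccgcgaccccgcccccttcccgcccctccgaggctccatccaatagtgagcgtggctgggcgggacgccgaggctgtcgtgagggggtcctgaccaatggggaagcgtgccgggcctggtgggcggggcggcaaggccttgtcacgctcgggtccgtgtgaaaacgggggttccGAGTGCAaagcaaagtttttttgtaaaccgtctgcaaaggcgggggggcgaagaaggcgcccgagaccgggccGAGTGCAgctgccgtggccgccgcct
The MT2A window held 8 matches, MT1X 4, SLC30A1 2 and MTF1 none. Among all 35116 promoter windows of this length, 29.6% held at least 1 match, 8.60% at least 2, 0.601% at least 4, and 0.0199% (7 windows) at least 8. In MT2A the matches lay from -246 to 36 relative to the start base, counted as 0, and those of MT1X lay between -150 and -47, upstream of a TATAAA sequence. In SLC30A1 1 match lay at -49 to -43 and the other just after the start, at 24 to 30. With the N of the core limited to A or C, which 17.3% of windows hold at least once, 4 matches remained in MT2A, 4 in MT1X and none in SLC30A1. These matches describe letters in a window and not sites bound in MV411 cells.

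The depth inferred from the FPKM steps was 17776956 to 21640689 fragments per library. DMSO replicate 3 stood apart from the other DMSO libraries. Between it and DMSO replicates 1 and 2, chi-square per gene on the recovered fragments was 70.4 to 88.3, against 4.52 between replicates 1 and 2, 2.45 to 3.39 among the corilagin libraries, and 23.5 to 27.1 between DMSO replicate 3 and the corilagin libraries. Its difference from the other DMSO libraries ran with the GC content of transcripts, from a median of 0.68 on the log2(FPKM + 1) scale in the eighth of tested genes with the lowest GC to -0.33 in that with the highest. The tested members are therefore also given against or without that library, and with each library's GC trend removed. Markers of monocytic leukaemia were present: 7 of 8 (CD33, FLT3, MEIS1, HOXA9, SPI1, LYZ and CSF1R) had a mean of at least 1 FPKM and CD68 was near 0. The summed markers were at 521 to 522 FPKM after corilagin and 468 to 512 FPKM in DMSO. That sum hides opposite differences. FLT3, its largest part, was at 186, 203 and 261 FPKM in DMSO and 307, 307 and 318 FPKM after corilagin, and MEIS1 was also higher. LYZ was at 62.2, 70.7 and 72.5 FPKM in DMSO and 42.9, 44.7 and 40.9 FPKM after corilagin. SPI1 and CSF1R were also lower in every corilagin library, and CD33 and HOXA9 overlapped. All 3 erythroid markers were at 0, T cell markers summed to at most 0.0625 FPKM and fibroblast markers to at most 0.108 FPKM. B cell markers summed to 4.93 to 5.84 FPKM after corilagin and 5.27 to 6.54 FPKM in DMSO with MS4A1 at 0, epithelial markers to 3.44 to 4.04 and 3.91 to 5.12 FPKM with EPCAM at 0, and endothelial markers, nearly all PECAM1, to 20.0 to 21.6 and 15.2 to 16.3 FPKM. The part of these levels in the results below was not tested.

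Metallothionein mRNA was lower after corilagin in 4 of the 5 genes measured, and the fifth, MT1X, was near the detection limit in both groups. The summed level of the 5 genes was 38.3, 39.1 and 29.3 FPKM in DMSO replicates 1 to 3 and 16.5, 16.9 and 18.7 FPKM in the corilagin libraries, a ratio of 0.488. MTF1 differed little. SLC30A1 lay higher after corilagin in every library, close to the level it already had in DMSO replicate 3, but it was not called, and its log2 difference went from 0.57 to 0.14 with overlapping groups once the GC trend was removed. The metallothioneins and SLC30A1 are known targets of MTF1, and "zinc response" names that known role here and not a change they were seen to share. In bulk RNA, fewer cells carrying an mRNA and less of it per cell cannot be told apart. Of the 6 members tested, limma on log2(FPKM + 1) put 4 past the adjusted p threshold of 0.05 as lower (MT1E, MT1F, MT1G and MT2A) and none as higher, where 13.5% of all 9868 tested genes were lower, 11.9% higher and 25.4% either. Their median log2 difference was -0.59, and that of all tested genes was 0.03. Since this comparison was used in choosing the members, nothing is read from that count. Rescaling FPKM to equal sums raised the median of all tested genes to 0.14 and turned the split of calls from 46.8% to 60.5% higher, with MT1E, MT1G and MT2A still called lower and MT1F not. For 4 of the 6 tested members all corilagin values lay below all DMSO values, and for SLC30A1 above, where 23.3% of tested genes lay below, 25.0% above and 48.3% either. With the GC trend removed the same 4 members were called lower and none higher, where 23.0% of genes were lower, 21.4% higher and 44.4% either. Without DMSO replicate 3 the same 4 were lower and MTF1 and SLC30A1 higher, but 77.3% of all tested genes were then called (40.8% higher, 36.5% lower).

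**Figure D1:**
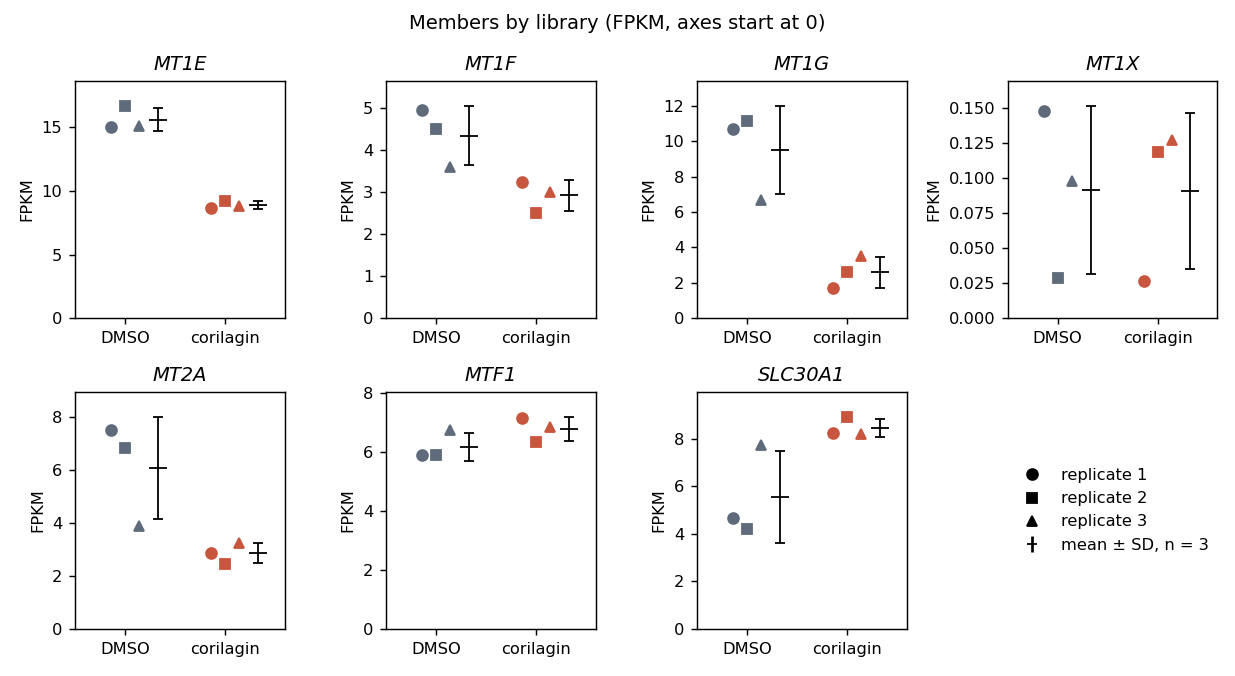
FPKM of each of the 7 members in every library, with an axis from 0 in each panel; symbols give the replicate number, and the bar to the right of each group is the mean ± SD (n = 3). MT1E, MT1F, MT1G and MT2A lie lower in all corilagin libraries, DMSO replicate 3 (triangle) lies nearest to corilagin for MT1F, MT1G, MT2A, MTF1 and SLC30A1, and MT1X stays below 0.15 FPKM.

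MT1G had the largest difference of the 7. It was at 10.7, 11.1 and 6.67 FPKM in DMSO replicates 1, 2 and 3 and at 1.72, 2.59 and 3.49 FPKM in corilagin replicates 1, 2 and 3. The groups did not overlap, and both varied: DMSO replicate 3 was the lowest control and corilagin replicate 3 the highest treated library. The means were 9.51 ± 2.47 and 2.60 ± 0.885 FPKM (SD, n = 3 each), a ratio of 0.274, with a log2 difference of -1.55 (SE 0.234). These values rest on 158, 168 and 89 fragments in DMSO and 28, 38 and 48 fragments after corilagin. Against DMSO replicate 3 alone the ratio was 0.390, and against the other DMSO libraries 0.238. With the GC trend removed the log2 difference was -1.38 (SE 0.187), and in limma-voom on the recovered fragments it was -1.90. MT1G (ENSG00000125144, GRCh38 chromosome 16, 56666731 to 56668065) is the only one of the 11 metallothionein genes listed on this chromosome that lies on the minus strand.

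MT1E was the most abundant of the metallothioneins in every library. It was at 15.0, 16.6 and 15.1 FPKM in DMSO replicates 1 to 3 and at 8.65, 9.23 and 8.83 FPKM in the corilagin libraries, from 170 to 351 fragments each. Both groups were tight, and DMSO replicate 3 lay between the other controls. The means of 15.6 ± 0.907 and 8.91 ± 0.297 FPKM (SD, n = 3 each) gave a ratio of 0.571, 0.591 against DMSO replicate 3 alone, and a log2 difference of -0.74 (SE 0.0809). That difference was -0.63 with the GC trend removed and -0.76 without DMSO replicate 3. MT1E (ENSG00000169715) lies on the plus strand of chromosome 16 at 56625475 to 56627112.

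MT2A, a metallothionein expressed in most human tissues, was at 7.51, 6.82 and 3.88 FPKM in DMSO and at 2.88, 2.46 and 3.23 FPKM after corilagin. DMSO replicate 3 lay much nearer the corilagin libraries than the other controls did, though above all 3 of them. The means were 6.07 ± 1.93 and 2.86 ± 0.384 FPKM (SD, n = 3 each), a ratio of 0.471, which was 0.399 against DMSO replicates 1 and 2 and 0.737 against replicate 3. The log2 difference was -0.84 (SE 0.209), -0.72 with the GC trend removed, -1.09 without DMSO replicate 3 and -0.34 with it as the only control. MT2A (ENSG00000125148, chromosome 16, 56608199 to 56609497, plus strand) is the member whose promoter window above holds the most matches to the response element core.

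MT1F was at 4.94, 4.49 and 3.58 FPKM in DMSO and at 3.24, 2.51 and 3.01 FPKM after corilagin, from 91 to 180 fragments. The groups came close, with DMSO replicate 3 just above corilagin replicate 1. The means were 4.34 ± 0.693 and 2.92 ± 0.374 FPKM (SD, n = 3 each), a ratio of 0.673, and the log2 difference was -0.44 (SE 0.125), or -0.26 with the GC trend removed. Against DMSO replicates 1 and 2 the ratio was 0.619 and the log2 difference -0.55. Against replicate 3 alone they were 0.815 and -0.23, and MT1F was then not called. MT1F (ENSG00000198417) lies on chromosome 16 at 56657694 to 56660698, plus strand. MT1F and MT2A lost their place past the threshold when any 1 library other than DMSO replicate 3 was left out, while MT1E and MT1G kept theirs whichever library was left out. Of all 9868 tested genes, 307 to 354 were called without 1 corilagin library. Without DMSO replicate 1, 2 or 3 the numbers were 852, 521 and 7627. The members were chosen on this comparison, so these calls are a description and no test.

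MT1X was at 0.147, 0.0289 and 0.0977 FPKM in DMSO and at 0.0268, 0.118 and 0.127 FPKM after corilagin. These are 1 to 5 fragments per library, with 9 in each group, so a difference was not detectable at this depth. MT1X (ENSG00000187193) lies on chromosome 16 at 56682424 to 56684196, plus strand. In GENCODE release 29, 321 of its 1773 exonic bases (18.1%) also lie in exons of AC026461.1, a gene on the same strand that was not analysed here, and 44.5% of the 150-base windows of its transcript occur in that gene's transcripts too. A read from the shared bases matches both genes, and the part of this in the low MT1X values was not tested. For MT1E, MT1F, MT1G and MT2A no 150-base window occurred in a transcript of another gene, and of 50-base windows 10.6%, 3.59%, 14.3% and 4.88% did, in other metallothioneins and their pseudogenes. Their values are uncertain to that extent where reads were trimmed short.

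The rest of the family was silent or nearly so. MT1A, MT1B, MT1H, MT1HL1, MT3 and MT4 had 0 fragments in all 6 libraries, which allows up to 3 fragments in each library, for counting error only. MT1M had 1, 0 and 0 fragments after corilagin and 3, 3 and 0 in DMSO. MT1A, MT1B and MT1M lie between MT1E and MT1F on chromosome 16, and MT1H between MT1G and MT1X, where the 5 member genes span 75998 bases (56608199 to 56684196). MT1H has 8 matches to the response element core in its promoter window, as many as MT2A, and MT1B and MT4 have 3 each. Among the metallothioneins with a window, MT2A alone was clearly expressed, and MT1E, MT1F and MT1G had no window. How the number of matches goes with expression therefore cannot be read from these genes.

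**Figure D2:**
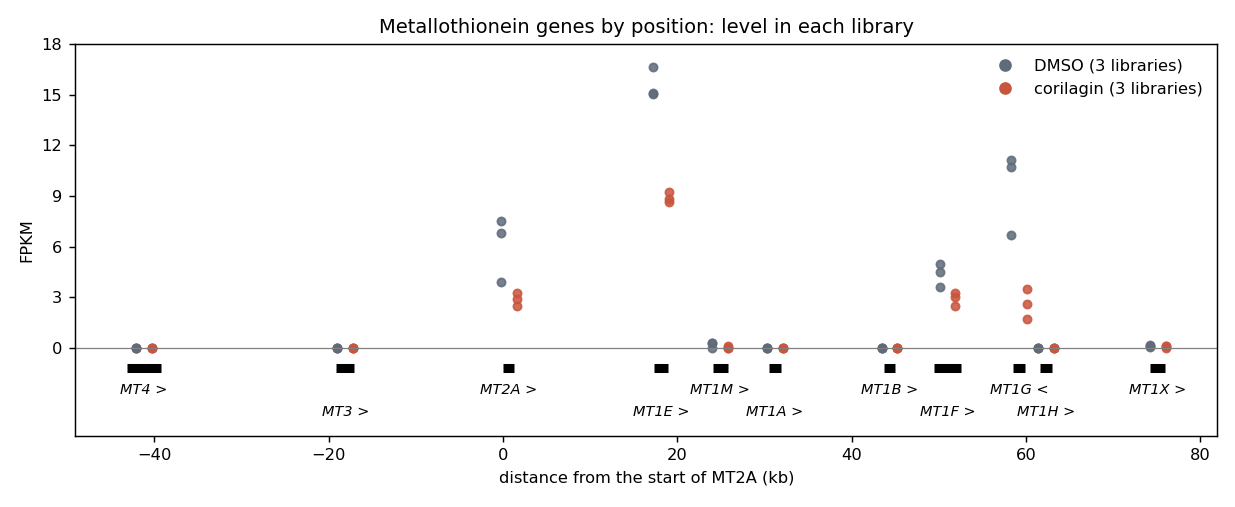
FPKM in each library (grey, DMSO; red, corilagin; 3 points each) for the 11 metallothionein genes of chromosome 16, placed by distance in kb from the start of MT2A; black bars are the genes and arrows their strand. MT2A, MT1E, MT1F and MT1G carry the signal, with DMSO above corilagin in each, and the genes between them lie at or near 0.

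The make-up of metallothionein mRNA restates the levels above as shares. MT1G was known to fall when the members were chosen, and as parts of a whole the other shares rise when its share falls. MT1G was 27.9%, 28.5% and 22.7% of the summed metallothionein FPKM in DMSO and 10.4%, 15.3% and 18.7% after corilagin, without overlap. MT1F was 12.9%, 11.5% and 12.2% in DMSO and 19.6%, 14.9% and 16.1% after corilagin, also without overlap. MT1E held the largest share in every library, 44.4 ± 6.33% in DMSO and 51.4 ± 3.76% after corilagin (SD, n = 3 each), with overlapping groups. MT2A held 16.8 ± 3.23% and 16.4 ± 1.62%. For MT2A the deposited FPKM imply a gene length of 914 bases, where its exons in GENCODE release 29 cover 1299, so its level, share and place in the order depend on the annotation used, and its ratios between groups do not. These shares come from the same FPKM values as the levels above and are no separate measurement.

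MTF1, the zinc-sensing activator of these genes, was at 5.88, 5.90 and 6.72 FPKM in DMSO and at 7.13, 6.34 and 6.85 FPKM after corilagin. The groups overlapped, and the ratio of the means was 1.10, or 1.01 against DMSO replicate 3. The log2 difference was 0.12 (SE 0.0898), 0.08 with the GC trend removed and 0.17 without DMSO replicate 3, from 923 to 1233 fragments per library. MTF1 (ENSG00000188786) lies on chromosome 1 at 37809567 to 37859620, minus strand.

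SLC30A1 was at 4.67, 4.19 and 7.75 FPKM in DMSO and at 8.25, 8.91 and 8.21 FPKM after corilagin. All corilagin values were higher than all DMSO values, but DMSO replicate 3 lay within 0.5 FPKM of the lowest of them. The means were 5.54 ± 1.93 and 8.45 ± 0.394 FPKM (SD, n = 3 each), a ratio of 1.53, which was 1.91 against DMSO replicates 1 and 2 and 1.09 against replicate 3. Its log2 difference was 0.57 (SE 0.190), 0.80 without DMSO replicate 3, and 0.14 (SE 0.0685) with the GC trend removed, where the groups overlapped. Its transcript has a GC content of 38.0%, in the eighth of tested genes with the lowest GC, whose median log2 difference was 0.45. SLC30A1 (ENSG00000170385) lies on chromosome 1 at 211571568 to 211578742, minus strand.

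**Figure D3:**
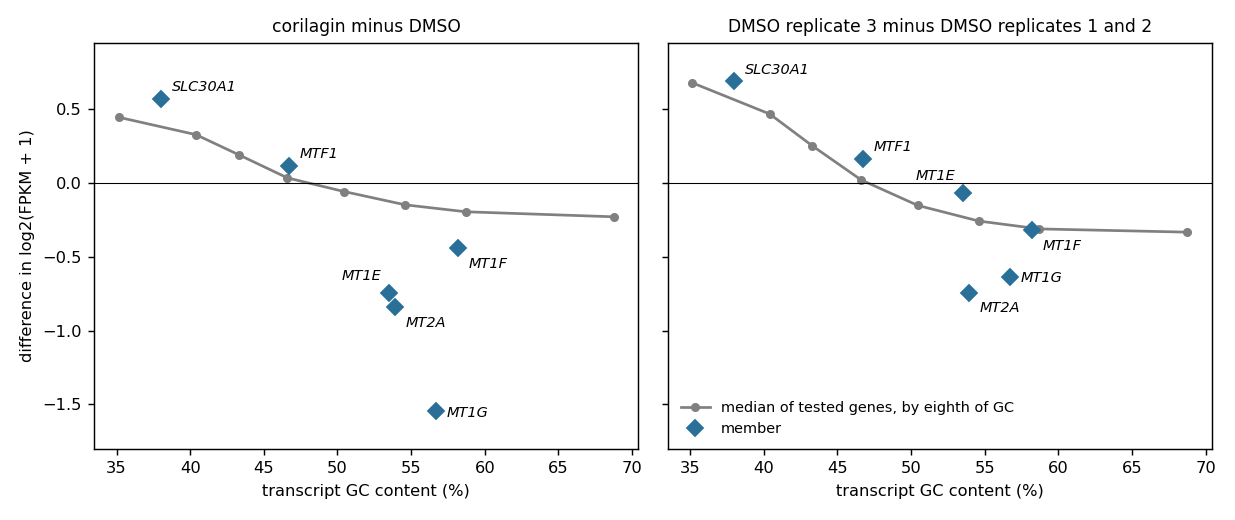
Difference in log2(FPKM + 1) against transcript GC content for the 6 tested members (diamonds) and the median of all tested genes in each eighth of GC content (grey line). On the left, corilagin minus DMSO, where SLC30A1 and MTF1 lie near the line and the metallothioneins below it; on the right, DMSO replicate 3 minus DMSO replicates 1 and 2, where MT1F lies on the line, MT1E above it, and MT1G and MT2A below.

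Set beside the median gene of like GC content, the 4 expressed metallothioneins lay further down. They were chosen with this difference known, so their place below the median is a description and no test. In the 2 eighths of GC content that hold them, 273 and 297 of 1232 genes each were called lower. Transcripts of MT1E and MT2A have 53.5% and 53.9% GC, and the eighth of tested genes around them had a median log2 difference of -0.15. Those of MT1F and MT1G have 58.2% and 56.7%, with a median of -0.20 in their eighth. Between DMSO replicate 3 and the other DMSO libraries, MT2A and MT1G differed by -0.74 and -0.64 on the log2 scale, where the medians of their eighths were -0.26 and -0.31. MT1E differed by only -0.06 in that contrast and MT1F by -0.32. MT2A and MT1G thus differed within the DMSO group by more than the median gene of like GC content, and MT1E by less.

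The order of the levels changed with the group. In DMSO, MT1E was highest, followed by MT1G, MTF1, MT2A, SLC30A1, MT1F and MT1X by mean FPKM. Only the first step and the last were free of overlap between neighbours there. Among the genes in between, MT1G and MTF1 lay above every MT1F value without being next to it in the order, while MT2A and SLC30A1 overlapped MT1F. After corilagin, MT1E and SLC30A1 were highest with overlapping values, MTF1 followed without overlap, then MT1F, MT2A and MT1G, which overlapped one another, and MT1X.

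Genes whose profile over the 6 libraries was most like the mean of the 5 metallothioneins were BAG1, PWWP3A, FAM136A, LETM1, RPUSD3 and MRTO4. Their Pearson correlations on the log2(FPKM + 1) scale were 0.996 to 0.999 over the 6 libraries and are a description only, since the points share the 2 groups and the departure of DMSO replicate 3. A correlation of at least 0.95 was reached by 800 of the 6527 genes searched, or 12.3%. LETM1, an inner mitochondrial membrane protein, was at 17.0, 16.8 and 12.5 FPKM in DMSO and 8.63, 9.01 and 9.75 FPKM after corilagin. All 6 of these genes had DMSO replicate 3 between the other controls and the treated libraries, as had MT1F, MT1G and MT2A. That follows from picking the 6 genes by likeness of profile and is no separate observation.

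Zinc importers and the other exporters were fixed by family and not by their values. Of all tested genes, 11.9% were higher and 25.4% were called in either direction. Of 10 further exporter genes (SLC30A2 to SLC30A10 and TMEM163), 4 were tested and 1 was higher. This was SLC30A6, a family member of the secretory pathway, at 12.9 ± 0.533 against 8.74 ± 1.75 FPKM (SD, n = 3 each; limma adjusted p = 0.0298, log2 difference 0.53). SLC30A5, SLC30A7 and SLC30A9 stayed short of the threshold (limma adjusted p = 0.231, 0.300 and 0.133). The median of the 4 was 0.37. After removal of the GC trend SLC30A6 was at 0.09 (adjusted p = 0.356) and SLC30A7 was lower at -0.28 (adjusted p = 0.0187), where 44.4% of all tested genes were called. Without DMSO replicate 3 all 4 were higher, where 77.3% of all tested genes were called and 40.8% were higher. Like SLC30A1, these transcripts are poor in GC (36.2 to 40.0%).

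Of 14 importers of the SLC39A family, 10 were tested, 3 were lower, none higher and 7 did not pass. Of all tested genes, 13.5% were lower, 11.9% higher and 25.4% either. SLC39A3, a plasma membrane importer, fell from 12.6 ± 1.84 to 7.66 ± 0.459 FPKM (SD, n = 3 each; limma adjusted p = 0.0133), SLC39A4, the importer of dietary zinc, from 9.43 ± 1.08 to 6.21 ± 0.745 FPKM (adjusted p = 0.0225), and SLC39A11 from 6.76 ± 0.159 to 5.02 ± 0.582 FPKM (adjusted p = 0.0329). Without DMSO replicate 3, 3 importers were higher and 4 lower, these 3 among the latter (adjusted p of 3.69e-07, 2.05e-05 and 0.00126), and 7 of 10 called is near the 77.3% of all tested genes called there. They were also lower with the GC trend removed (0.00105, 0.00331 and 0.0169), where SLC39A6 and SLC39A7 joined them and SLC39A13 was higher. The median of the 10 was -0.05, or -0.24 with the trend removed. SLC39A10, known to be repressed by MTF1, was at 3.72, 4.28 and 9.44 FPKM in DMSO and 6.10, 6.30 and 6.08 FPKM after corilagin (adjusted p = 0.653), so its corilagin values lay between those of the control libraries. Without any 1 corilagin library, or without DMSO replicate 2, none of the 10 passed the threshold, and without DMSO replicate 1 only SLC39A3 did. Few genes passed there: 307 to 354 of all 9868 tested without 1 corilagin library, 521 without DMSO replicate 2 and 852 without DMSO replicate 1.

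**Figure D4:**
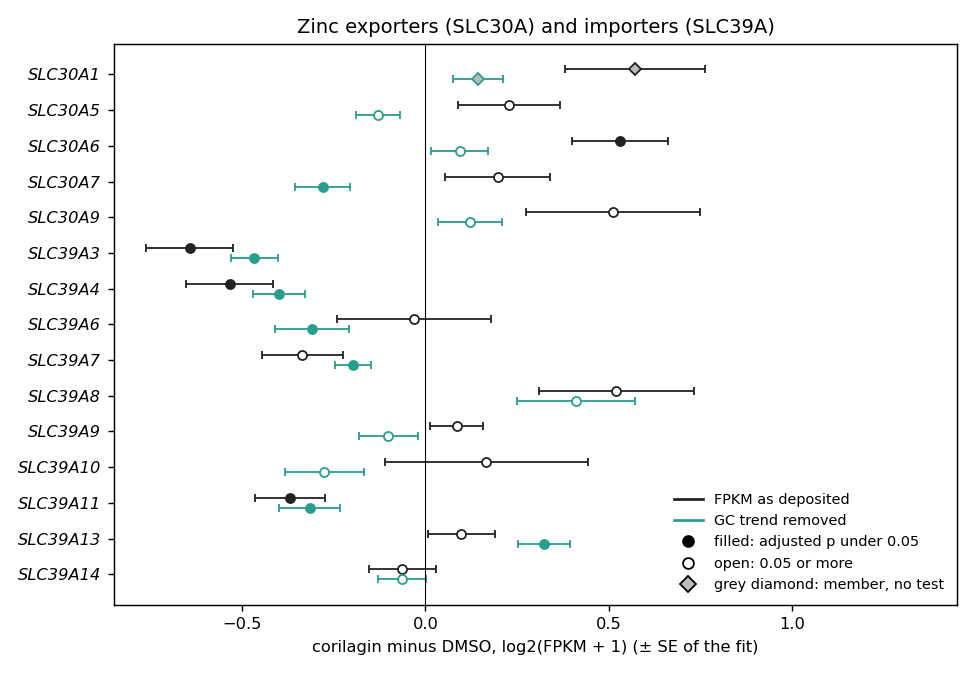
Corilagin minus DMSO on the log2(FPKM + 1) scale (± SE of the fit, 3 libraries per group) for the tested zinc exporters and importers, with FPKM as deposited (black) and with each library's GC trend removed (green). SLC39A3, SLC39A4 and SLC39A11 are lower in both, and the exporters lie above 0 as deposited and near or below it once the trend is removed.

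Other genes linked to metals or to known inducers of metallothioneins were called in both directions, and 1 gene linked to MTF1 was called higher. These lists were drawn up with earlier results of these data known, so their p-values carry that limit. Over all tested genes, 13.5% were lower, 11.9% higher and 25.4% either. Of 7 further genes linked to MTF1, 6 were tested and 1 was higher, GCLC, the catalytic subunit of glutathione synthesis, at 3.75 ± 0.351 against 2.45 ± 0.135 FPKM (SD, n = 3 each; limma adjusted p = 0.0147), with a median of 0.10 over the 6. Of 13 copper-handling genes, 8 were tested, 1 was higher (the importer SLC31A1, ratio 1.34, adjusted p = 0.0163, or 0.0517 with the GC trend removed) and 1 lower (SCO1, a copper chaperone of cytochrome oxidase, ratio 0.647, adjusted p = 0.00812), with a median of -0.04. Of 8 genes of heavy metal stress, 3 were lower, namely the heat shock proteins HSPA1A (ratio 0.539, adjusted p = 0.0182), HSPB1 (0.625, 0.0179) and DNAJB1 (0.777, 0.0445). In that list 1 was higher, the cystine transporter subunit SLC7A11 (ratio 4.09, adjusted p = 0.00472), with a median of -0.23. HSPA1A has a near-identical copy, HSPA1B, between which reads can be split, so its value is uncertain. Mean HSPA1B was 6.02 ± 1.51 FPKM in the DMSO libraries against 4.22 ± 0.416 FPKM with corilagin (SD, n = 3 each; limma adjusted p = 0.104). Of 7 genes of the glucocorticoid response, another inducer of metallothioneins, 5 were tested: TSC22D3 and KLF9 were higher (ratios 2.17 and 2.09; adjusted p = 0.00215 and 0.00954), DUSP1 was lower (0.436; adjusted p = 0.00305), with a median of 0.12 over the 5. Once the GC trend was taken out, the numbers higher and lower were 1 and 0 among genes linked to MTF1, 1 and 3 for copper (the 1 being CCS, a copper chaperone of superoxide dismutase, and not SLC31A1), 2 and 5 for metal stress, and 3 and 2 for glucocorticoid response, where 44.4% of all tested genes were called. Without DMSO replicate 3 they were 3 and 2, 3 and 4, 2 and 4, and 2 and 1, where 77.3% of all tested genes were called. Over all these lists, the transporters and the flanking genes below (46 genes), 7 were higher and 10 lower. Without any 1 corilagin library 2 were higher and 1 or 2 lower, where 307 to 354 of all 9868 tested genes were called.

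Genes that flank the metallothionein cluster on chromosome 16 did not share 1 direction. Of 7 flanking genes 6 were tested, and NUP93, the nearest of them after MT1X, was lower at a ratio of 0.737 (limma adjusted p = 0.0349). SLC12A3 was also lower (ratio 0.604, adjusted p = 0.0179, or 0.0655 with the GC trend removed), and HERPUD1 was just past the threshold as higher (ratio 1.20, adjusted p = 0.0498). Of all tested genes, 13.5% were lower and 11.9% higher. HERPUD1 was not called with either other pseudocount, without the filter, with median-of-ratios or quantile scaling, with the replicate block or in limma-voom, and its adjusted p over all alternatives ranged from 0.000971 to 0.177. NUDT21 and OGFOD1, on the other side of the cluster, did not pass. The median of the 6 was -0.11. The tested genes of the cluster itself lay at -0.74 (MT1E), -0.44 (MT1F), -1.55 (MT1G) and -0.84 (MT2A). Those were chosen with this difference known, so no contrast with the flanking genes is read from them. With the GC trend removed 3 were lower and 1 higher, and without DMSO replicate 3, 3 were lower and 2 higher, beside the same 44.4% and 77.3% over all tested genes.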

How the data were processed

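Total RNA of 6 MV411 libraries was read as 150-base pairs after poly(A) selection, per the labels' protocols. The submitters' processing notes name fastp 0.22.0, HISAT2 2.1.0, HTSeq 0.9.1, DESeq 1.38.3 and GRCh38; settings, strand and annotation release are not given in the sources used here. The authors deposited 1 table of FPKM. FPKM values were whole multiples of 1 fragment, so fragments were recovered for all 15921 genes above 0 (within 0.001 of a whole number, which the search requires). Library totals came from the step and annotated gene lengths, 1967 genes giving the same total, and all 7 members then had a whole gene length, which for MT2A was 914 bases against 1299 exonic bases in GENCODE 29. Differences are corilagin minus DMSO from limma 3.58.1 in R 4.3.3 (trend, 2-sided, no covariate) on log2(FPKM + 1), for 9868 genes (mean FPKM 1 or more), with Benjamini-Hochberg adjustment over those genes at 0.05; a fold on that scale understates changes of low genes, so ratios are of mean FPKM. The GC trend was removed per library with a natural spline of 5 degrees of freedom on the GC content of the longest GENCODE 29 transcript (9859 genes), which also takes out any true difference that follows GC content. The fit was run on simulated data without an outlying control library. That run does not cover calls under the departure of DMSO replicate 3. The members, gene lists, rules and alternatives were chosen with earlier results of these data known. Genes named were all members, every other metallothionein, the largest called differences of each list (at most 3 in each direction) and the 6 most like profiles. Further genes named beside a count or for their known link to MTF1 were chosen after their values were seen. Alternatives were pseudocounts, filters, scalings, a block for replicate number, GC removal, limma-voom and left-out libraries. The values of 1 flanking gene are not reported here.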

Additional observations from a re-analysis of the deposited data

How the results depend on the processing

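The direction of all 6 tested members held under every alternative run that tested them. The members were chosen on this comparison, so their calls below are a description and no test. The log2 differences ranged from -0.81 to -0.63 for MT1E, -1.90 to -1.12 for MT1G, -1.09 to -0.34 for MT2A, -0.57 to -0.23 for MT1F, 0.01 to 0.22 for MTF1 and 0.11 to 0.80 for SLC30A1. MT1E and MT1G were called lower in all 18 alternatives, MT2A in 11 of 17 and MT1F in 9 of 17. Members called lower, 4 as reported, were 2 without the filter and 2 at a mean of at least 5 FPKM, which tests fewer genes, and 2 to 4 with a library left out. Members called higher, 0 as reported, were 0 to 2 with a library left out. Genes called higher over all tested genes (1171) were 713 at a mean of at least 5 FPKM, 2113 with the GC trend removed, 1916 without DMSO replicates 1 and 2 together (the lone control is then assumed to vary like the others) and 131 to 4030 with a library left out. Genes called lower (1331) were 2267 with the GC trend removed and 176 to 3597 with a library left out. Over the pathway lists together, 7 were higher and 10 lower, against 19 lower with the GC trend removed, 17 lower without DMSO replicates 1 and 2 together, and 2 to 18 higher and 1 to 18 lower with a library left out, 18 in each case being without DMSO replicate 3. Signs turned, with a call, for SLC30A7 (-0.28) and NUDT21 (-0.14) with the GC trend removed, for SLC39A6 (0.23, against -0.20 without DMSO replicate 1) and HSPH1 (0.24, against -0.27 without DMSO replicate 1) without DMSO replicate 3, and for SLC39A10 (-0.54) without DMSO replicates 1 and 2 together; the cause was not tested. The replicate numbers were not taken as pairing in the main fit. Deviations of same-numbered libraries correlated at 0.280, 0.0787 and 0.339. Each corilagin library correlated best with the DMSO library of its own number. For corilagin replicates 1 and 2 the next DMSO library was close (0.279 with DMSO replicate 2 and 0.0644 with DMSO replicate 1). DMSO replicate 2 correlated better with corilagin replicate 1 (0.279) than with corilagin replicate 2. Whether the numbers mark pairs was not tested. With the replicate block, SLC30A1 was called higher (limma adjusted p = 0.0497), which made 1 member higher, and 4 members stayed lower. Over all tested genes the block gave 1547 higher and 1330 lower. The block with the GC trend removed gave 2105 genes higher and 2207 lower, 11 and 19 in the pathway lists, and -0.28 for SLC30A7. By fragments scaled to library size but not to length, MTF1 and SLC30A1 came first. Low fragment numbers limit MT1X and MT1M.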
